A study of Mus musculus with 26 samples.

Results

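Transcripts known from the trophoblast lineage and from simple epithelia were followed across groups of mouse embryonic stem cells: Cdx2, Eomes, Elf5, Plet1, Krt8 and Krt18. They are 6 of the 18193 genes that the arrays measured. Each gene is read from 1 probe set, the brightest on average of those annotated to that symbol alone, and its other probe sets served as a check. Messenger RNA was measured on 26 Affymetrix arrays in 13 groups of 2. All cells carried the labels C57BL/6 and male, and the stem cells grew on mouse embryonic fibroblast (MEF) feeders. Wild-type Prdm14(+/+) stem cells and Prdm14(-/-) stem cell-like cells were each kept in 4 media. In 2i, N2B27 was supplemented with LIF at 1000 units per ml and a pair of kinase inhibitors, 0.4 uM PD0325901 against MEK and 3 uM CHIR99021 against GSK3. The other media were used for 2 days and held 20% fetal bovine serum: serum with LIF, serum without LIF, and serum with LIF and 0.4 uM PD0325901. Prdm14(-/-) cells with the AGP14 transgene, a tagged Prdm14 (Avitag-EGFP-Prdm14) in a pPyCAG vector, were kept in 2i, serum and serum without LIF. These AGP14 cells carry the knockout too. Epiblast-like cells (EpiLC), sampled at day 2 and day 3, were Prdm14(+/+) and carried the reporter transgenes Blimp1-mVenus and Stella-ECFP (BVSC), so they differ from the wild-type stem cells in transgene as well as in state. How many independent clones stand behind each genotype was not stated in the sources used here.

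The trophoblast is the first epithelium of the mouse embryo and later builds most of the placenta. Cdx2, Eomes and Elf5 encode transcription factors (caudal-type homeobox, T-box and ETS family) that together sustain trophoblast stem cells, and the Elf5 promoter is known to be methylated in embryonic stem cells. Plet1 encodes a surface protein of placental progenitors. Krt8, a type II keratin, and Krt18, its type I partner, pair into the intermediate filaments of simple epithelia, trophectoderm included. Eomes also acts in the primitive streak, and Cdx2 in posterior mesoderm and gut, so neither is specific to trophoblast.

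Among the members with clear signal, Plet1, Krt8 and Krt18 varied most between groups, and the 250 bases that precede their start sites are printed to show which common promoter elements they do and do not share. Sequences are from RefSeq, build GRCm38.p6, 5′ to 3′ on the strand of the gene; all 6 members had an entry. Capitals mark matches, on either strand, to any of 5 short motifs. These are the TATA-box motif TATAAA, the CCAAT-box motif (CCAAT itself), the GC-box motif GGGCGG, the AP-1-type motif TGANTCA, and the KLF-type motif CACCC. In TGANTCA, here called the AP-1 motif, N is any base.
Plet1, chr9:50494275-50494524 (+): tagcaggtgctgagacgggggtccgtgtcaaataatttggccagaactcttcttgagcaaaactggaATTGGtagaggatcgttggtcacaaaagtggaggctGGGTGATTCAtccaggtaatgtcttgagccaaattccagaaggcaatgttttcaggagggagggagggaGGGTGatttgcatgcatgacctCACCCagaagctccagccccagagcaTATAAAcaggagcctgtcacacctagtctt
Krt8, chr15:102004343-102004592 (-): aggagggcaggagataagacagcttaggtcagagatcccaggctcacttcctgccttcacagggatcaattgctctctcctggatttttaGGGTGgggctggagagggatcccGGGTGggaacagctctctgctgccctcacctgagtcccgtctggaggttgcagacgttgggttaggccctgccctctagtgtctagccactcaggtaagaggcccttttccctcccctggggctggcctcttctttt
Krt18, chr15:102027966-102028215 (+): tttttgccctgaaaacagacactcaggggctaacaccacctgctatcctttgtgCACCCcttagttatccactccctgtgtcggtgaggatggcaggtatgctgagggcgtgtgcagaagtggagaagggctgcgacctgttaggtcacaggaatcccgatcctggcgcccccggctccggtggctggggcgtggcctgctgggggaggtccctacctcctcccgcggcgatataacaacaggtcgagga
The Plet1 window held TATAAA 30 bases before the start site and CCAAT on the other strand 183 bases before it. Its match to the AP-1 motif, 144 bases before the start site, reads TGATTCA. Of its 3 CACCC matches, the one at 147 bases shares bases with the AP-1 motif. The Krt8 and Krt18 windows held CACCC only, 2 matches for Krt8 and 1 for Krt18. Among 32851 RefSeq promoter windows of the same length, 12.4% held the TATA-box motif, 33.8% the CCAAT box, 32.7% the GC-box motif, 6.75% the AP-1 motif and 52.0% the CACCC motif. A match describes letters and is not evidence of binding. Krt8 and Krt18 are transcribed away from each other on chromosome 15, with 23874 bases between their start sites.

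Values are log2 signals as deposited, on a base that is not stated and was inferred from their range. The values ran from 0 to 13.89, and array medians lay between 4.86 and 5.01, so a level under about 3.2, the lowest 25th percentile of an array, is dim. Nothing in the labels ties replicates to separate cultures, so each p-value reflects the spread between arrays alone, which may be technical; 2 arrays per group limit the precision throughout. Genes were called at a limma adjusted p under 0.05 (Benjamini-Hochberg over 18193 genes), and "rose" and "fell" are used only of called genes. The Prdm14 probe set read 8.95 and 9.40 in wild-type 2i arrays and 11.33 and 11.24 in those labelled knockout, against the direction of the label. With MEK inhibitor it read 9.04 and 9.48 in wild type and 10.60 and 10.87 in knockout. In serum it read 5.88 and 7.38 against 5.40 and 6.47, and without LIF 4.28 and 5.17 against 3.21 and 4.05. In AGP14 arrays it read 9.30 and 9.11 in 2i, 6.42 and 6.33 in serum, and 5.12 and 4.86 without LIF. These lay between the wild-type arrays in each medium, and in 2i below the arrays labelled knockout. Whether the probe set detects the transgene was not stated in the sources used here. A probe outside the deleted part checks nothing, and which part was deleted was not stated in the sources used here. Every knockout and AGP14 direction below therefore rests on the labels, and "knockout" and "AGP14" stand for the arrays so labelled. A poly-A spike-in control, lys, divided the arrays into 12 with high signal (13.28 to 13.51; wild type and knockout in 2i or with MEK inhibitor, and EpiLC) and 14 with low signal (7.08 to 7.54; every AGP14 array and every array in serum or serum without LIF). Comparisons of 2i or MEK inhibitor with serum in wild type or knockout, and of AGP14 with either in 2i, cross this division, and it cannot be told apart from the medium or genotype in them. Pluripotency markers (5 genes) averaged 10.9 to 12.2 per array in stem cells and 10.7 to 10.8 in EpiLC. The mean of 13 measured feeder fibroblast genes was 8.56 to 9.07 on the 6 arrays in 2i, 7.73 to 8.07 on the 4 with MEK inhibitor, 6.42 to 7.13 on the 6 in serum, 6.31 to 7.42 on the 6 without LIF and 5.17 to 5.47 on the 4 of EpiLC; 1 further listed gene, Fbn1, was not measured. In such mixed cultures, fewer cells of a type and less RNA per cell cannot be told apart.

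**Figure D1:**
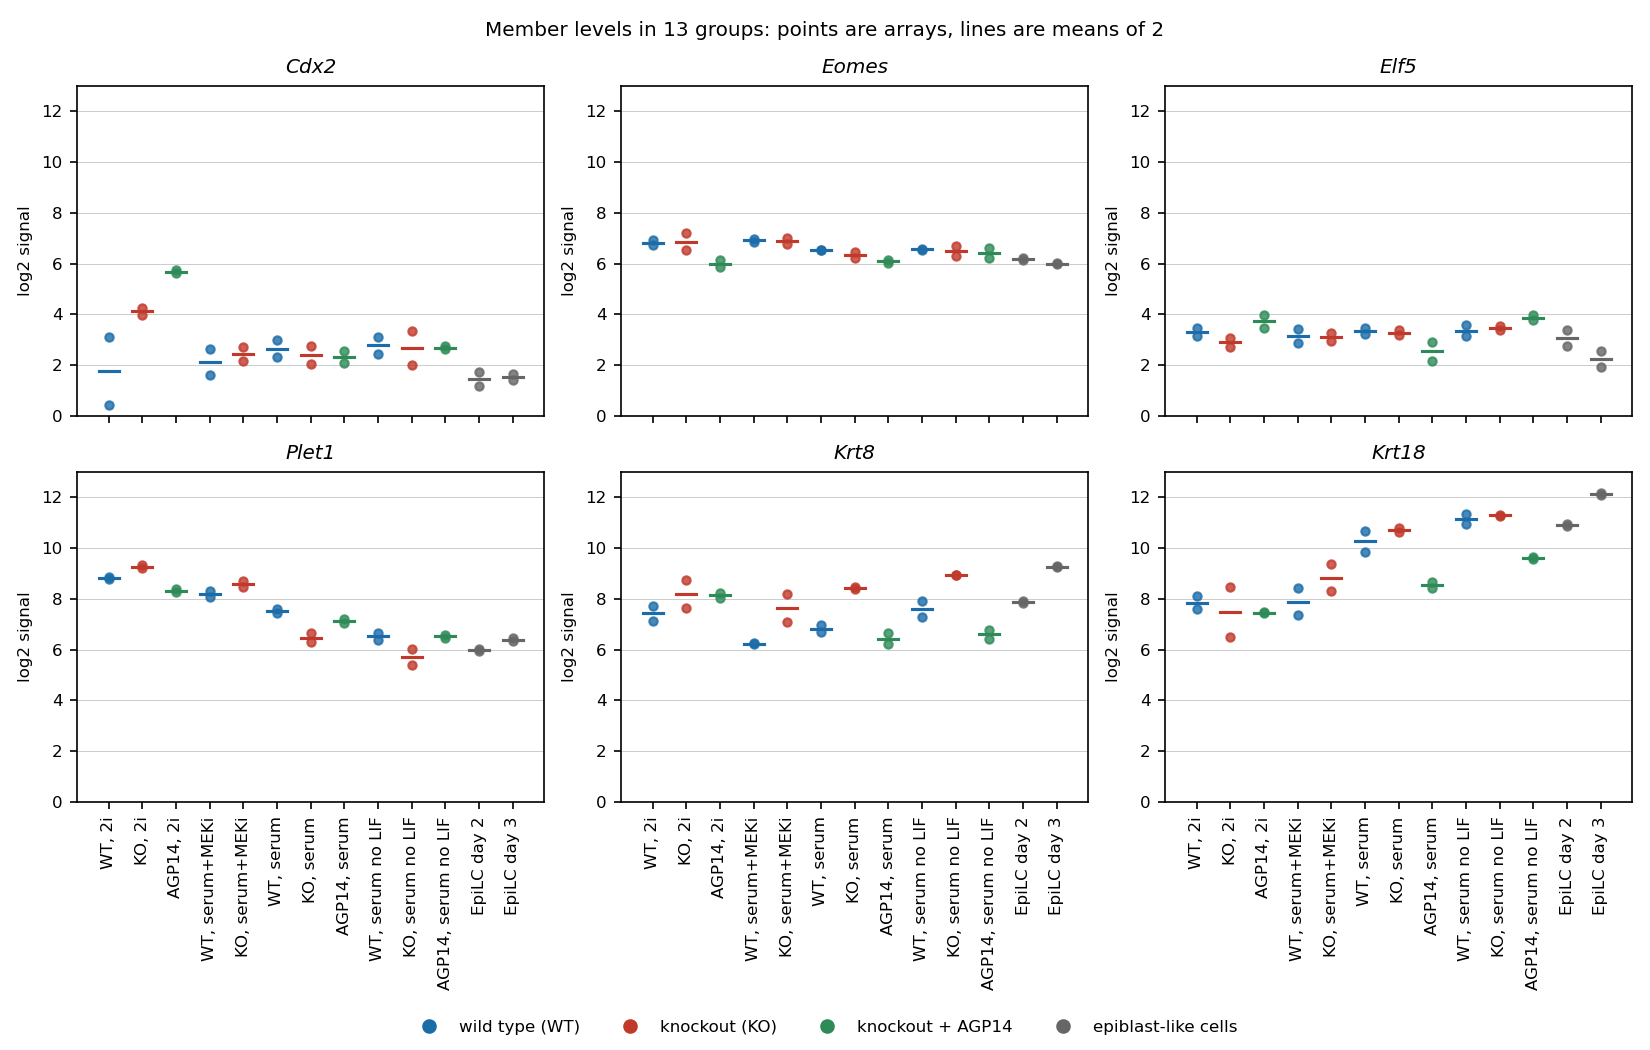
Log2 signal (vertical axis) of the 6 members in the 13 groups (horizontal axis); each point is 1 array and each line the mean of 2, for wild type (WT), knockout (KO), knockout with AGP14, and EpiLC. Elf5 is below the array median on every array, and Cdx2 on all but those of AGP14 cells in 2i. Plet1 is highest in knockout and wild-type cells in 2i. Krt18 runs the other way, from 7.46 in AGP14 cells in 2i to 12.1 in EpiLC of day 3.

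Cdx2 signal was highest in AGP14 cells in 2i and next in knockout cells in 2i; wild-type cells in 2i were dim. In 2i it read 5.62 and 5.74 in AGP14 arrays, 3.98 and 4.25 in knockout arrays and 0.44 and 3.10 in wild-type arrays, so these 3 groups did not overlap. The 10 other groups lay between 1.16 and 3.36. Both AGP14 arrays in 2i were above their array's median signal, and the other 24 of the 26 arrays were below theirs; 21 were below the 25th percentile. Cdx2 rose by 2.35 (SE 0.65) in knockout against wild type in 2i (adjusted p = 0.0282); it was the only member called there, where 9.15% of all genes were called. The call was lost without knockout replicate 1 (adjusted p = 0.0926), knockout replicate 2 (0.133) or wild-type replicate 1 (0.467), the array at 0.44, without which the difference was 1.02. In AGP14 cells Cdx2 was 3.91 above wild type in 2i (SE 0.65, adjusted p = 0.000232), a size that also leans on the wild-type array at 0.44. It was 1.57 above knockout, which did not pass (adjusted p = 0.0897). Both comparisons cross the spike-in division. Within the low spike-in arrays, Cdx2 fell by 3.36 from 2i to serum in AGP14 cells (SE 0.65, adjusted p = 0.00112), from 5.62 and 5.74 to 2.56 and 2.09. In knockout cells the fall from 2i to serum was 1.71 (adjusted p = 0.0473), a call lost without any 1 of the 4 arrays (0.0643 to 0.239). A second Cdx2 probe set was listed at 0 on 19 of 26 arrays and nowhere exceeded 1.19, so it gave no second reading of these differences. Cdx1, the paralog of Cdx2 among the listed primitive streak genes, was highest in 2i in all 3 genotypes. Cdx2 was highest in 2i in AGP14 and knockout cells. In wild type Cdx2 averaged 1.77 in 2i and 2.13 to 2.775 in the other media, all dim. That 2i mean comes from arrays at 0.44 and 3.10, so no difference from Cdx1 is read from it. Cdx1 had group means of 5.94 in AGP14, 6.93 in knockout and 6.59 in wild type against 2.12 to 3.62 elsewhere, and it fell from 2i to serum by 3.04 in AGP14, 3.65 in knockout and 3.23 in wild type.

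Eomes signal was middling and even, and no detection calls were used. Its group means ran from 6.00 in AGP14 cells in 2i to 6.92 in wild type with MEK inhibitor, a span of 0.92, and in 10 of the 12 pairs of neighbouring groups in this order the arrays overlapped. The AGP14 arrays in 2i read 5.85 and 6.15, below 6.52 and 7.22 in knockout and 6.72 and 6.92 in wild type, with no overlap. Eomes was lower there by 0.87 against knockout (SE 0.20, adjusted p = 0.00298) and by 0.82 against wild type (adjusted p = 0.00471). Both comparisons cross the spike-in division, and the calls were lost without knockout replicate 2 (0.0861) and without AGP14 replicate 1 (0.0675). In serum and serum without LIF, where AGP14 and knockout share 1 spike-in level, the differences between them were -0.23 (95% confidence interval -0.65 to 0.18) and -0.10 (-0.51 to 0.31). Eomes in knockout fell by 0.55 from 2i to serum (adjusted p = 0.0366) and rose by 0.56 from serum to MEK inhibitor (adjusted p = 0.0442). Leaving out 1 array ended each call. The first ended without knockout replicate 2 in 2i (difference then -0.195) or either serum replicate (-0.66 and -0.43). The second ended without any 1 of the 4 arrays (differences of 0.435 to 0.685). The second Eomes probe set followed the first over the 13 group means (r = 0.84). In a limma model of all probe sets it called AGP14 against knockout in 2i (-0.775, adjusted p = 0.00824). AGP14 against wild type in 2i did not pass there (-0.56, adjusted p = 0.0516). Neither did serum against 2i (-0.335, adjusted p = 0.241) or MEK inhibitor against serum (0.27, adjusted p = 0.400) in knockout. In every knockout comparison with wild type within a medium, the Eomes interval included 0.

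Elf5 was below the array median on all 26 arrays and below the 25th percentile on 13. It ranged from 1.92 in EpiLC of day 3 to 3.98 in AGP14 cells, and neighbouring groups overlapped in all 12 pairs of its order. It was called in 1 comparison, a fall of 1.18 from 2i to serum in AGP14 cells (SE 0.36, adjusted p = 0.0269), from 3.47 and 3.98 to 2.93 and 2.16. The call was lost without AGP14 replicate 2 in 2i (0.220) or in serum (0.247), and the second Elf5 probe set differed by 0.735 the other way.

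Plet1 changed in 9 of the 10 comparisons between media. In 2i it read 8.84 and 8.77 in wild type, 9.20 and 9.32 in knockout and 8.26 and 8.37 in AGP14. With MEK inhibitor in serum it read 8.08 and 8.32 in wild type and 8.45 and 8.69 in knockout. Knockout was the higher genotype in both of these media. In serum it read 7.42 and 7.59 in wild type, 6.30 and 6.64 in knockout and 7.05 and 7.22 in AGP14. Without LIF it read 6.39 and 6.66, 5.41 and 6.01, and 6.44 and 6.59 in the same order. Every stem cell array with a MEK inhibitor, in 2i or in serum, was therefore above every one without it. From 2i to serum Plet1 fell by 1.30 in wild type (SE 0.17, adjusted p = 6.66e-06), by 2.79 in knockout (adjusted p = 6.89e-10) and, within the low spike-in arrays, by 1.18 in AGP14 (adjusted p = 6.90e-05). Adding the MEK inhibitor to serum raised it by 0.70 in wild type (adjusted p = 0.00466) and by 2.10 in knockout (adjusted p = 8.75e-08). The wild-type call was lost without serum replicate 1 (0.0544) or MEK inhibitor replicate 2 (0.0662). Within the high spike-in arrays, Plet1 with MEK inhibitor in serum stayed below 2i, by 0.61 in wild type (adjusted p = 0.0227) and 0.69 in knockout (adjusted p = 0.00914); the first call was lost without either 2i replicate (0.114 and 0.0671) or MEK inhibitor replicate 1 (0.180), the second without 2i replicate 2 (0.0735) or MEK inhibitor replicate 1 (0.108). LIF removal, compared within the low spike-in arrays, took Plet1 lower still. Removing LIF lowered it by 0.98 in wild type (adjusted p = 0.00561) and 0.76 in knockout (adjusted p = 0.0318), while the difference of -0.62 in AGP14 did not pass (adjusted p = 0.128). The wild-type call was lost without serum replicate 2 (0.0922) or serum without LIF replicate 1 (0.0997), and the knockout call without serum replicate 2 (0.267) or replicate 1 of serum without LIF (0.400).

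The feeder genes moved with the medium in the same direction as Plet1. From 2i to serum 9 of 13 were lower and 1 higher in wild type and in knockout, with medians of -3.50 and -2.94. In AGP14 9 were lower and 2 higher. Of all genes, 34.6%, 35.8% and 18.2% were called there in wild type, knockout and AGP14. From serum to MEK inhibitor 10 were higher and 1 lower in wild type, and 9 higher and 0 lower in knockout. Of all genes, 25.4% and 24.5% were called there. Over the 13 group means, which share arrays' processing and feeders, Plet1 and the feeder mean had r = 0.82, and Krt18 and the feeder mean r = -0.88; these were 0.98 and -0.95 within the 6 groups of high spike-in signal and 0.56 and -0.81 within the 7 of low signal. Markers of cell state also moved with both genes. The mean of 4 epiblast-like genes (Fgf5, Otx2, Pou3f1 and Dnmt3b) had r = -0.89 with Plet1 and 0.88 with Krt18, and the mean of 5 pluripotency genes 0.85 and -0.92, over the same 13 group means. The part of feeder RNA or of cell state in the medium differences was not tested. On removal of LIF, which lowered Plet1, the medians of the 13 feeder genes were -0.015 in wild type and 0.255 in knockout.

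**Figure D2:**
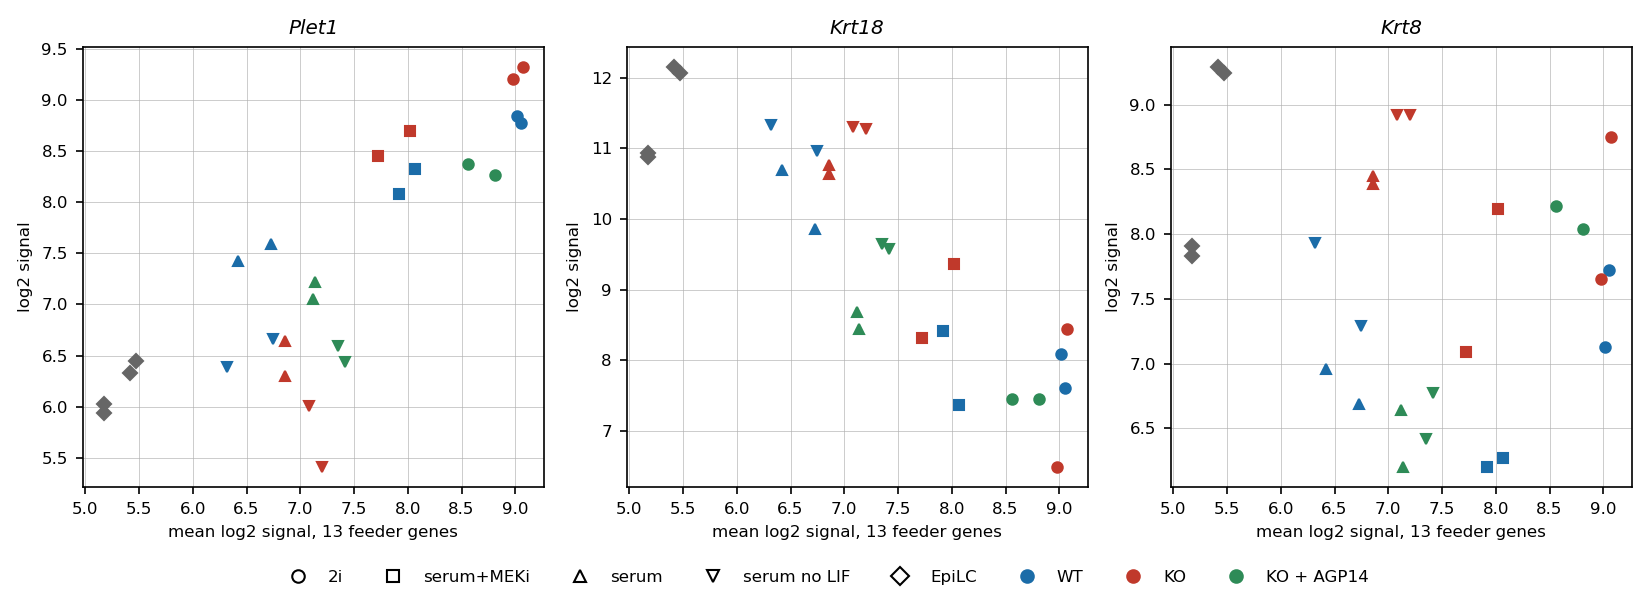
Log2 signal of Plet1, Krt18 and Krt8 (vertical axes) against the mean log2 signal of 13 feeder fibroblast genes (horizontal axes), 1 point per array; shapes give the medium and colours the genotype, with EpiLC as diamonds. Plet1 rises and Krt18 falls along the feeder mean, Krt8 does neither, and knockout arrays without LIF read 5.41 and 6.01 for Plet1, overlapping EpiLC of day 2, at a feeder mean of 7.20 and 7.08.

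The genotype difference in Plet1 turned with the medium. In knockout against wild type Plet1 fell by 1.04 in serum (SE 0.17, adjusted p = 0.00169) and by 0.82 when LIF was absent (adjusted p = 0.00882), with no overlap of the arrays. In 2i and with MEK inhibitor it was higher in knockout by 0.455 and 0.37, and neither passed (adjusted p = 0.106 and 0.302). The test of the difference itself passed: the change from 2i to serum was 1.49 lower in knockout than in wild type (-1.49, SE 0.24, adjusted p = 0.00219), and the change from serum to MEK inhibitor 1.41 higher (adjusted p = 0.0127). For the first, 2.97% of all genes were called, for the second 0.231%, and Plet1 was the only member called in each. The second lost its call without knockout serum replicate 1 (0.0891), wild-type serum replicate 2 (0.0666), knockout MEK inhibitor replicate 2 (0.0547) or wild-type MEK inhibitor replicate 1 (0.0655). For the change on LIF removal limma called 0% of genes as different between genotypes, with 654 of 18193 at an unadjusted p under 0.05, and 0 members at that limit. Each of these is a difference of 2 genotype differences taken within 1 spike-in level. Feeder means in serum were 6.86 and 6.86 in knockout, 6.42 and 6.72 in wild type and 7.12 and 7.13 in AGP14. Without LIF they were 7.20 and 7.08, 6.31 and 6.74, and 7.42 and 7.35 in the same order. They were higher in knockout than in wild type, where Plet1 was lower. They were higher again in AGP14, where Plet1 lay above knockout, as given below. The part of feeders in these Plet1 differences was not tested.

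In AGP14 cells Plet1 lay above knockout in serum by 0.67 (adjusted p = 0.0150) and without LIF by 0.81 (adjusted p = 0.00292). Against wild type without LIF it differed by -0.01 (95% confidence interval -0.36 to 0.34), and in serum by -0.37 (-0.72 to -0.02, adjusted p = 0.198). In 2i, across the spike-in division, it was below knockout by 0.95 (adjusted p = 0.00042) and below wild type by 0.49 (adjusted p = 0.0393). The difference from knockout lost its call in serum without AGP14 replicate 2 (0.136) or knockout replicate 1 (0.181), and without LIF when knockout replicate 1 was left out (0.0794); the call of the knockout fall without LIF ended with the loss of knockout replicate 1 (0.158) or wild-type replicate 2 (0.0779). The difference from wild type in 2i was lost without any 1 of the 4 arrays (0.0856 to 0.185).

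These Plet1 values rest on probe set 1423933_a_at, and the 3 Plet1 probe sets did not all read alike. Probe set 1454254_s_at tracked it over the 13 group means (r = 0.95) and gave -3.50 for serum against 2i in knockout, -1.14 for knockout against wild type in serum and -1.51 for the genotype difference in the change from 2i to serum. Probe set 1423934_at ran between 5.88 and 6.91 on all arrays, with r = -0.55 against the first, and gave 0.645, 0.02 and 0.27 for the same comparisons. In a limma model of all probe sets, 1454254_s_at did not pass for several other differences called above. Knockout against wild type without LIF gave -0.565 (adjusted p = 0.217). AGP14 against knockout gave 0.63 in serum (0.101) and 0.595 without LIF (0.109). LIF removal gave -0.915 in wild type (0.0584) and -0.345 in knockout (0.655). MEK inhibitor in serum against 2i gave -0.605 in wild type (0.105) and -0.71 in knockout (0.0546). Which transcripts each probe set detects was not stated in the sources used here.

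**Figure D3:**
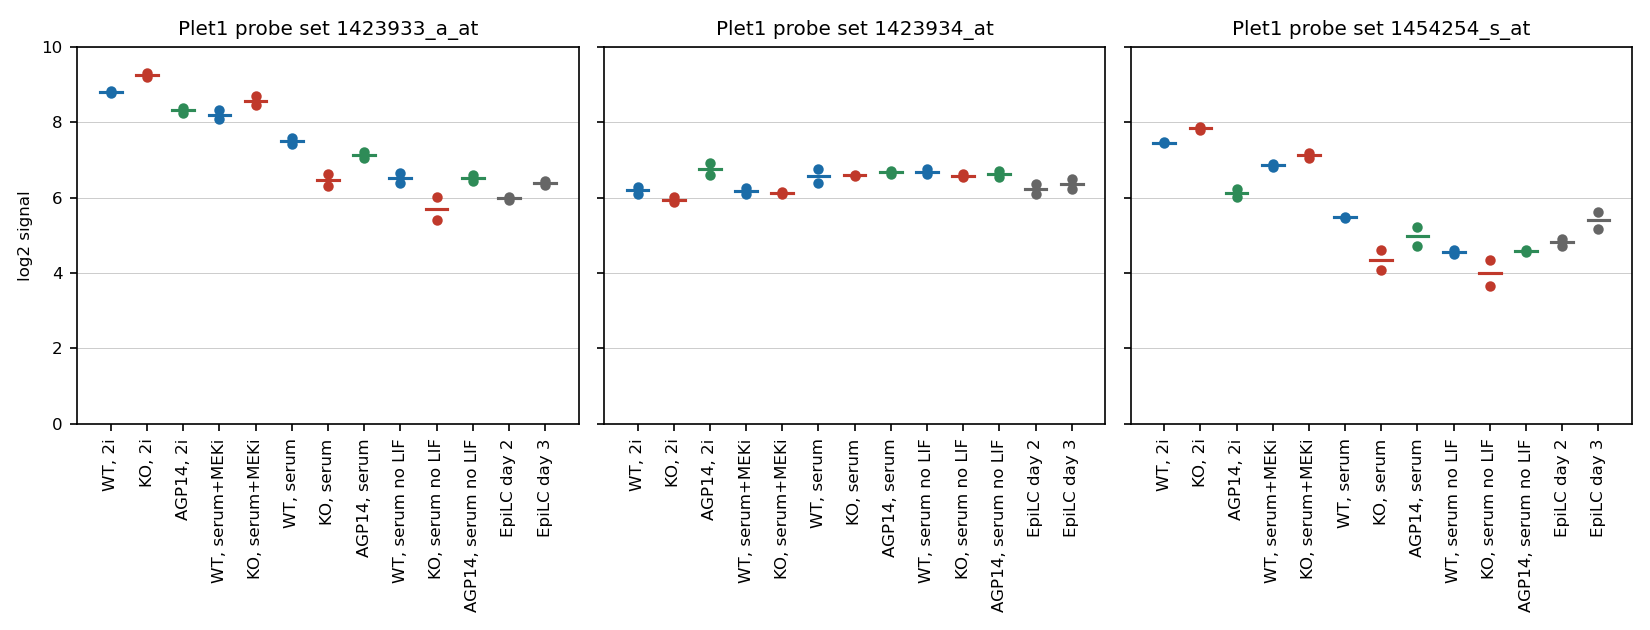
Log2 signal (vertical axis) of the 3 Plet1 probe sets in the 13 groups (horizontal axis); points are arrays and lines means of 2. The left and right probe sets are high in 2i and with MEK inhibitor and lowest in knockout cells without LIF, while the middle one stays between 5.88 and 6.91.

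Krt8 rose in knockout cells over the 4 media as a whole and, taken singly, in 3 of them. In serum it read 6.96 and 6.69 in wild type and 8.45 and 8.39 in knockout, a rise of 1.60 (SE 0.32, adjusted p = 0.00888). Without LIF it read 7.93 and 7.29 against 8.92 and 8.92, a rise of 1.31 (adjusted p = 0.0270). With MEK inhibitor it read 6.20 and 6.27 against 7.09 and 8.19, a rise of 1.41 (adjusted p = 0.0174). In these 3 media every knockout array lay above every wild-type array. In 2i it read 7.13 and 7.72 against 7.65 and 8.75, where the arrays overlapped and the difference of 0.775 did not pass (adjusted p = 0.163). Averaged over the 4 media, Krt8 was 1.27 higher in knockout (SE 0.16, 95% confidence interval 0.93 to 1.61, adjusted p = 2.03e-05), and this call held in all 23 alternatives run, with adjusted p up to 0.00101. The calls in single media were less stable. In serum the call ended when knockout replicate 1 (0.0660) or 2 (0.0522) or wild-type replicate 2 (0.0692) was left out, without LIF with the loss of knockout replicate 1 (0.135) or 2 (0.122) or wild-type replicate 2 (0.187), and with MEK inhibitor without knockout replicate 2 (0.254), wild-type replicate 1 (0.113) or 2 (0.0619). All 6 member calls in single media ended in models of that medium's 4 arrays alone, in which 2 to 25 genes were called. In knockout against wild type, members called numbered 2 of 6 in serum, 2 in serum without LIF, 1 with MEK inhibitor and 2 over all media, where 4.17%, 4.19%, 4.08% and 20.4% of all genes were called. Where 2 members were called, the second was Plet1; its average over media, -0.26 (adjusted p = 0.0368), mixes the directions given above and was lost without any 1 of 8 arrays (0.0736 to 0.103): knockout and wild-type replicate 1 in 2i, knockout replicate 1 in serum, without LIF and with MEK inhibitor, and wild-type replicate 2 in the same 3.

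Krt18, its filament partner, was not called in knockout against wild type in any medium. It read 8.09 and 7.61 in wild type and 6.49 and 8.45 in knockout in 2i, 10.69 and 9.86 against 10.77 and 10.63 in serum, 11.33 and 10.96 against 11.27 and 11.30 without LIF, and 8.41 and 7.37 against 8.31 and 9.36 with MEK inhibitor. The arrays of the 2 genotypes overlapped in every medium. Averaged over media the difference was 0.28 (95% confidence interval -0.19 to 0.75, adjusted p = 0.446). The interval of Krt8 and that of Krt18 do not overlap, but the difference between the genes was not tested.

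In AGP14 cells both keratins were lower than in knockout cells in serum and without LIF, all on low spike-in arrays. Krt8 in AGP14 read 6.64 and 6.20 in serum and 6.77 and 6.42 without LIF, lower than knockout by 2.00 (SE 0.32, adjusted p = 0.000532) and 2.33 (adjusted p = 7.54e-05). Krt18 in AGP14 read 8.68 and 8.44 in serum and 9.58 and 9.65 without LIF, lower than knockout by 2.14 (SE 0.45, adjusted p = 0.00428) and 1.67 (adjusted p = 0.0173). Against wild type, Krt18 fell by 1.72 in serum (adjusted p = 0.0291) and by 1.53 in the absence of LIF (adjusted p = 0.0358), so it did not lie at the wild-type level. Krt8 differed from wild type by -0.41 in serum (adjusted p = 0.516) and -1.02 without LIF (adjusted p = 0.0525), and neither passed; without LIF the other Krt8 probe sets, in a model of all probe sets, did pass (-1.38, adjusted p = 0.0186, and -1.225, adjusted p = 0.0380), as did Krt8 after quantile normalization (adjusted p = 0.0310). In 2i Krt8 and Krt18 differed from knockout by -0.07 (95% confidence interval -0.75 to 0.61) and -0.015 (-0.96 to 0.93). The calls for Krt8 against knockout and for Krt18 against knockout in serum held with any single array left out. Krt18 against knockout without LIF was lost without any 1 of the 4 arrays (0.0800 to 0.0934). Krt18 against wild type was lost in serum without AGP14 replicate 1 (0.101) or 2 (0.171) or wild-type replicate 1 (0.302), and without LIF by leaving out any single array of the 4 (0.0573 to 0.265). Feeder means were 7.12 and 7.13 in AGP14 in serum and 7.42 and 7.35 without LIF, above those of wild type and of knockout. Without LIF, 9 of 13 feeder genes were higher than in wild type, where 10.7% of all genes were called. Epiblast-like genes were lower in AGP14 than in knockout, 3 of 4 in serum (median -1.965) and 2 of 4 without LIF (median -1.165), and pluripotency genes higher, 3 and 4 of 5. Of all genes, 10.5% and 13.3% were called in these comparisons. The mean of the 4 epiblast-like genes was 9.38 and 9.03 in AGP14 against 11.075 and 10.935 in knockout in serum, and 10.43 and 10.28 against 11.525 and 11.525 without LIF. The part of feeders or of cell state in these differences was not tested.

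Of the 6 members, those called for AGP14 against knockout numbered 2 in 2i, 3 in serum and 3 without LIF, where 24.2%, 10.5% and 13.3% of all genes were called. Against wild type they numbered 3, 1 and 1, where 25.4%, 6.96% and 10.7% were called.

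**Figure D4:**
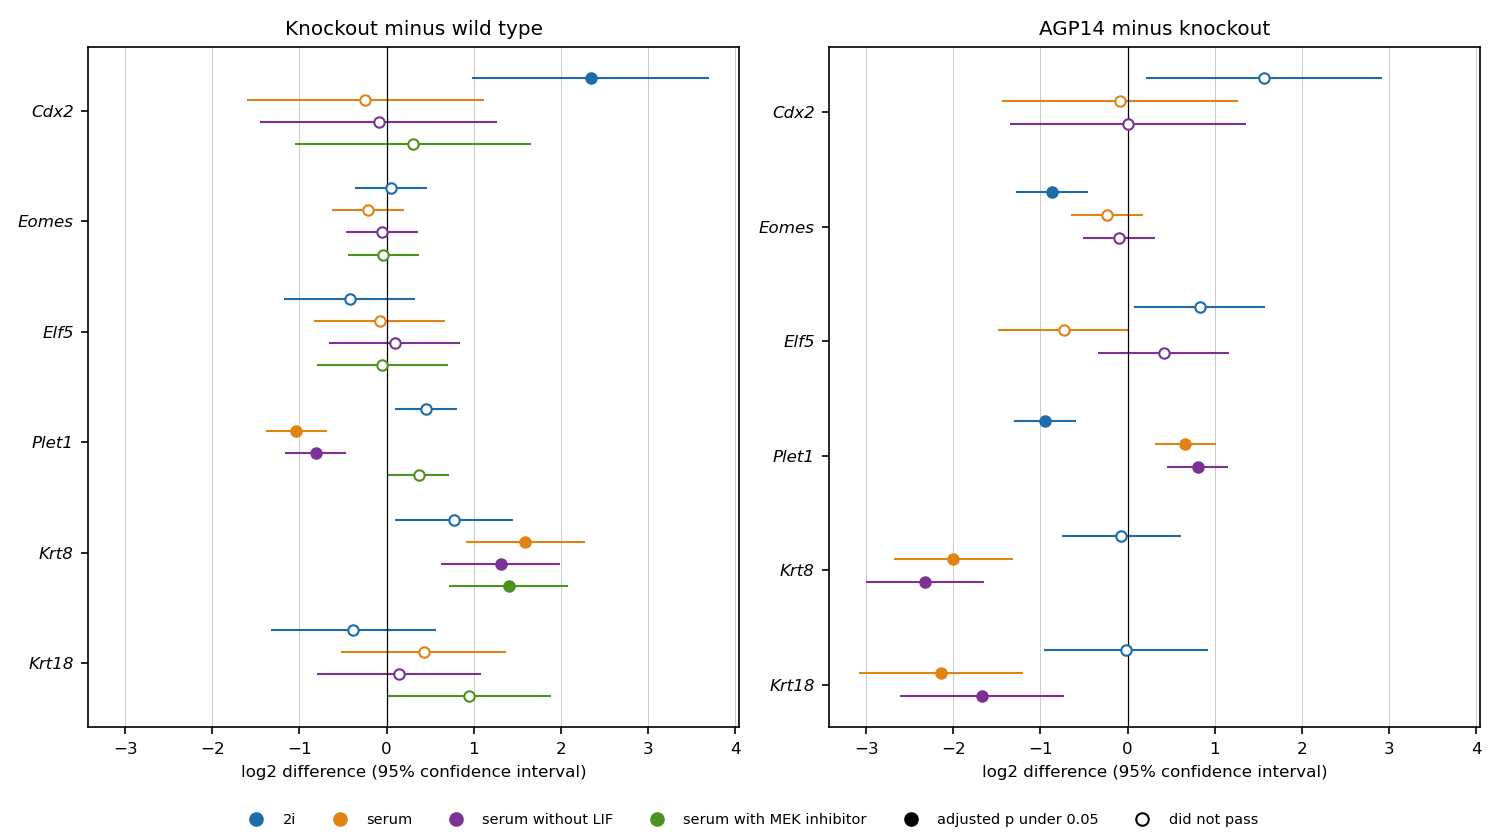
Log2 difference with its 95% confidence interval (horizontal axis) for the 6 members (vertical axis), knockout minus wild type on the left and AGP14 minus knockout on the right; colours give the medium, filled points passed the adjusted p limit and open points did not. Krt8 lies right of 0 in all 4 media on the left and at -2.00 and -2.33 in the serum media on the right, and on the left Plet1 lies right of 0 in 2i and with MEK inhibitor and left of 0 in serum and serum without LIF.

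Krt18 depended on the medium in the opposite sense to Plet1. From 2i to serum it rose by 2.43 in wild type (SE 0.45, adjusted p = 0.0003) and by 3.23 in knockout (adjusted p = 1.36e-05), both across the spike-in division. Within it, AGP14 arrays read 7.45 and 7.46 in 2i and 8.68 and 8.44 in serum; they did not overlap, and the difference of 1.11 did not pass (adjusted p = 0.103). When the MEK inhibitor was added to serum, Krt18 fell by 2.39 in wild type (adjusted p = 0.000627) and fell by 1.87 in knockout (adjusted p = 0.00473), the second lost without knockout MEK inhibitor replicate 1 (0.0806). Within the high spike-in arrays, Krt18 with MEK inhibitor in serum differed from 2i by 0.04 in wild type (95% confidence interval -0.90 to 0.98) and by 1.37 in knockout, which did not pass (adjusted p = 0.0522). Removal of LIF moved it by 0.87, 0.585 and 1.06 in wild type, knockout and AGP14, and none passed. Krt8 followed a different course from 2i to serum. It fell by 1.71 in AGP14 (SE 0.32, adjusted p = 0.000997), from 8.04 and 8.22 to 6.64 and 6.20. The differences of -0.60 in wild type and 0.22 in knockout did not pass. From serum to MEK inhibitor Krt8 differed by -0.59 in wild type and -0.78 in knockout. On LIF removal it differed by 0.785, 0.50 and 0.175 in wild type, knockout and AGP14. In all of these Krt8 went the way of Krt18, and none passed. With MEK inhibitor it was below 2i by 1.19 in wild type (adjusted p = 0.0206), a call lost without 2i replicate 2 (0.177) or MEK inhibitor replicate 1 (0.0969) or 2 (0.0714).

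Members called from 2i to serum numbered 2 of 6 in wild type, 4 in knockout and 4 in AGP14, against 34.6%, 35.8% and 18.2% of all genes. From serum to MEK inhibitor they numbered 2 and 3 in wild type and knockout, against 25.4% and 24.5%, and from 2i to MEK inhibitor in serum 2 and 1, against 12.5% and 13.2%. On removal of LIF Plet1 alone was called in wild type and in knockout, where 1.5% and 1.1% of genes were. In AGP14 limma called 0 of 6 members, with 3 at an unadjusted p under 0.05, and 0.302% of genes.

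Over the 13 group means the keratins were only loosely alike (r = 0.47), while Plet1 and Krt18 ran in opposite directions (r = -0.87; -0.92 within the 6 groups of high spike-in signal and -0.82 within the 7 of low signal). These group means share media, feeders and genotypes. In knockout cells in 2i and with MEK inhibitor, the replicates differed in both keratins. In 2i, replicates 1 and 2 read 6.49 and 8.45 for Krt18 and 7.65 and 8.75 for Krt8, and with MEK inhibitor 8.31 and 9.36, and 7.09 and 8.19. The differences between replicates 1 and 2 of Krt8 and Krt18 had r = 0.70 over the 13 groups and -0.01 over the 11 without these, so the relation rests on them; in 4 of the 13 groups the keratins differed in opposite directions, among them wild type in 2i and with MEK inhibitor. The other Krt8 probe sets had r of at least 0.9955 with the one used and called the same differences. Both also called AGP14 against wild type without LIF, and 1423691_x_at called MEK inhibitor against serum in knockout (-1.005, adjusted p = 0.0445), which the one used did not. Krt18 had 1 probe set.

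EpiLC of day 3 had the highest signal of both keratins among the 13 groups, and Plet1 was low on both days; on day 2 Krt8 ranked 6th and Krt18 4th. Krt18 read 8.09 and 7.61 in wild-type 2i arrays, 10.93 and 10.88 on day 2, a rise of 3.06 (SE 0.45, adjusted p = 1.96e-05), and 12.07 and 12.15 on day 3. Plet1 read 5.94 and 6.03 on day 2, a fall of 2.82 (adjusted p = 1.99e-10), and 6.45 and 6.33 on day 3. Krt8 read 7.83 and 7.91 on day 2, not called against wild-type 2i (0.445, adjusted p = 0.324), and rose by 1.40 to 9.24 and 9.29 on day 3 (adjusted p = 0.00488). Krt18 on day 3 was above every array of the other groups but its rise from day 2, 1.21, did not pass (adjusted p = 0.0746). Eomes was lower on day 2 than in 2i by 0.64 (adjusted p = 0.0139), lost without wild-type 2i replicate 2 (0.104) or day 2 replicate 1 (0.0766). Cdx2 read 1.73 and 1.16 on day 2 and 1.64 and 1.41 on day 3, and Elf5 3.37 and 2.77, then 2.56 and 1.92, all dim. In day 2 against 2i, 3 of 6 members and 38.3% of all genes were called, and in day 3 against day 2, 1 of 6 and 17.6%. These comparisons lie within the high spike-in arrays, and 11 of 13 feeder genes were lower and 1 higher on day 2 than in 2i; their part was not tested.

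Among 17 measured genes of a wider trophoblast list, calls ran in both directions in some comparisons, only upward in others and only downward in others again. Gcm1, Prl3d1 and Prl2c2 were not measured. For knockout against wild type averaged over media, 2 were higher and 3 lower, with a median of -0.12 against -0.01 over all genes, of which 20.4% were called. Esx1, a placental homeobox gene, rose by 1.40 and Peg10, an imprinted gene needed in the placenta, by 0.83, while Tfap2c (-0.70) and Ets2 (-0.49) fell. Rhox9, named after its values were seen, fell by 1.33. Tfap2c, an AP-2 factor active in both trophoblast and germ cells, was bright in all stem cells, with group means from 7.93 to 11.1, and in AGP14 exceeded knockout by 1.22 in serum and 2.31 without LIF. In knockout against wild type in 2i, 1 list gene was higher and 1 lower, where 9.15% of all genes were called. The list median there was -0.055, against -0.03 over all genes. The higher one, Gata3, a trophoblast GATA factor, rose by 1.90 (adjusted p = 0.0124), and its group means spanned 3.04 to 5.84. In the other direction, Rhox9 had group means of 3.94 in knockout and 6.35 in wild type in 2i. Hand1, of giant cells, stayed between 5.23 and 5.71 and Tpbpa, of the spongiotrophoblast, between 2.33 and 3.55 in group means. From 2i to serum 5 list genes were higher and 4 lower in wild type, where 34.6% of all genes were called. Ascl2 (1.38), a basic helix-loop-helix factor of the placenta, and the growth factor receptor gene Fgfr2 (1.16) rose, and Ets2 (-1.51) and Tead4 (-1.91), a TEAD factor that acts upstream of Cdx2 in the early embryo, fell. In EpiLC of day 2 against 2i, 3 were higher and 6 lower, where 38.3% of all genes were called. Cdh3 (2.15), the P-cadherin gene, rose, and Tfap2c (-3.71), Tead4 (-1.84) and Id2 (-2.82) fell. On day 3 against day 2, 3 were higher and 0 lower (median 0.30), where 17.6% were called. From serum to MEK inhibitor 4 were higher and 0 lower in knockout (24.5% of all genes), and 4 higher and 2 lower in wild type (25.4%). From 2i to MEK inhibitor in serum 3 were higher and 0 lower in knockout (13.2%), and 3 higher and 1 lower in wild type (12.5%). For AGP14 against wild type without LIF, 3 were higher and 0 lower (10.7%), and against knockout without LIF 2 and 0 (13.3%). In other comparisons calls ran only downward. For AGP14 against wild type in 2i, 0 were higher and 2 lower (25.4%), and for knockout against wild type without LIF 0 and 1 (4.19%). On LIF removal there were 0 and 2 in wild type (1.5%) and 0 and 1 in knockout (1.1%). For the genotype difference from 2i to serum there were 0 and 1 (2.97%).

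Genes that share the epithelial setting of the keratins were called in both directions. Of 13 measured genes for simple keratins and junctions, 4 were higher and 1 lower in knockout against wild type averaged over media, where 20.4% of all genes were called, with a median of 0.02. By medium, 2 were higher and 1 lower in 2i, 1 was higher without LIF, and 4 were higher and 1 lower with MEK inhibitor; in serum, where the Krt8 difference was largest, limma called 0 of 13, with 3 at an unadjusted p under 0.05. The claudins Cldn4 (0.50), Cldn6 (0.77) and Cldn7 (0.76), of tight junctions, and the adhesion gene Epcam (0.43) rose on average, and the type I keratin gene Krt42, named after its values were seen, fell by 0.20. In AGP14 against knockout, 4 were lower and 1 higher in serum and 5 lower and 1 higher without LIF, where 10.5% and 13.3% of all genes were called. Cldn4 (-0.74 and -1.16) and Cldn6 (-1.30 and -1.27) fell in both, as did Cldn7 (-1.455 and -1.68, the second named after its value was seen), and Jup, the plakoglobin gene, was 0.88 higher without LIF. In EpiLC of day 3 against day 2, 4 rose, where 17.6% of all genes were called, among them Krt20 (1.96), Cldn4 (1.02) and the desmoplakin gene Dsp (0.76). Krt7 and Krt19, the other keratins of trophoblast and simple epithelia, had group means of 4.74 to 6.93 and 4.60 to 6.02. The medians for AGP14 against knockout were -0.28 in serum and -0.50 without LIF, against -0.01 and 0.01 over all genes.

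Other genes followed the members' profiles closely over the 13 group means, among 11064 genes whose group means spanned at least 1. Most like Plet1 were Exoc6b (r = 0.97), of the exocyst complex, Clybl (0.97) and Timp1 (0.97), which encodes a metalloproteinase inhibitor that fibroblasts also make. Most like Krt18 were Rassf6, Aasdh and Pdlim3 (each r = 0.98), and most like Krt8 were Kif1c (0.94), a kinesin gene, Lad1 (0.90), which encodes ladinin, and Cers2 (0.88), a ceramide synthase gene. The dim members gave lower values, with Acot4 (0.89), Tm2d2 (0.88) and Commd7 (0.88) for Cdx2 and Gm4251 (0.85), BC048562 (0.84) and Ctcflos (0.83) for Elf5; Eomes did not span 1.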

How the data were processed

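The deposited values are on a log2 scale, 1 for each of 45100 probe sets on every array; how the authors normalized and summarised them was not stated in the sources used here. Per the labels' protocols, biotinylated cRNA was made from total RNA by a one-cycle method. Names came from the annotation of the platform. It gave a single gene symbol to 34944 probe sets, several to 932 (left out) and none to 9160; 64 were controls. Tests were two-sided contrasts in 1 limma 3.58.1 model (R 4.3.3) of all 26 arrays with 1 coefficient per group, 13 residual degrees of freedom and an intensity trend. Simulated data with known changes, drawn for the serum comparison of knockout and wild type over 18193 genes, gave 19 calls among 67 genes set to 1.5-fold, 38 among 67 set to 2-fold, 50 among 66 set to 4-fold, and 4 false calls. The members and lists were chosen with earlier results of these data known. Named genes are the members, Prdm14, listed genes (at most 4 called per list and comparison with the smallest p, or any with its values) and the 3 genes most like each member. Python 3.11.15 handled tables. Alternatives were quantile normalization, probe set means, a filter on dim genes, no trend, a replicate block, compared arrays only, each array left out, and other probe sets. A further one, the genotype-replicate block, took arrays of 1 genotype (EpiLC apart) and 1 replicate number as a random block. The labels do not say that such arrays are 1 line.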

Additional observations from a re-analysis of the deposited data

Results flagged for a closer look

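The Plet1 response to medium differed between the genotypes. The change from 2i to serum, -1.30 in wild type and -2.79 in knockout, differed by -1.49 (SE 0.24; limma adjusted p = 0.00219, higher in knockout in 2i and lower in serum on both arrays of each). The change from serum to MEK inhibitor, 0.695 in wild type and 2.10 in knockout, differed by 1.405 (adjusted p = 0.0127), and 4 of the 8 arrays ended this call when left out. Both values come from probe set 1423933_a_at; probe set 1423934_at gave 0.27 and -0.09 for Plet1. The cause of the difference was not tested.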

How the results depend on the processing

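Of 156 pairs of a member and a comparison, 47 were called, and 18 of these calls held in every alternative run for them. Numbers below count members called, of 6; knockout without another group named means knockout against wild type, and averaged means over 4 media. Counts within 1.5 times the main count are not listed. By pair, quantile normalization ended 3 calls and added 3, the mean of probe sets ended 14 and added 1, and no intensity trend ended 8. The genotype-replicate block ended 1 and added 7, the compared arrays alone ended 20 and added 5, and leaving out dim genes added 2. The 3 that ended under quantile normalization were Plet1 in AGP14 against wild type in 2i (0.166), Eomes for serum against 2i in knockout (0.0678) and Eomes for MEK inhibitor against serum in knockout (0.0700). Quantile normalization gave 2 for AGP14 against wild type without LIF and 2 for MEK inhibitor against 2i in knockout (1 each in the main result). The mean of probe sets gave 0 for knockout against wild type in 2i, both LIF removals, MEK inhibitor against 2i in knockout and the genotype difference with MEK inhibitor, 1 for knockout without LIF, knockout averaged and MEK inhibitor against 2i in wild type, and 2 for serum against 2i in knockout and AGP14 against wild type without LIF. Leaving out dim genes, which removes Cdx2 and Elf5, gave 0 for knockout in 2i and 2 for serum against 2i in AGP14, AGP14 against wild type without LIF and MEK inhibitor against 2i in knockout. Without the intensity trend there were 0 for AGP14 against wild type in serum and without LIF and for LIF removal in knockout, and 1 for knockout without LIF and averaged. With the genotype-replicate block there were 1 for knockout averaged and LIF removal in AGP14, and 2 for AGP14 against wild type without LIF and MEK inhibitor against 2i in knockout. For EpiLC day 3 against day 2 there were 3. With the compared arrays alone there were 0 for knockout in each medium, LIF removal in wild type and knockout, MEK inhibitor against 2i in both and both called genotype differences, 1 for knockout averaged, and 2 for LIF removal in AGP14 and EpiLC day 3.

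The replicate block, added because groups share replicate numbers, gave 2 for knockout in 2i, AGP14 against wild type without LIF and EpiLC day 3, and 1 for LIF removal in AGP14. It added calls for Plet1 in knockout in 2i (adjusted p = 0.0333), on LIF removal in AGP14 (0.0415) and on day 3 (0.0386), and for Krt8 in AGP14 against wild type without LIF (0.0464); it changed no other call. Same-numbered arrays of 1 genotype deviated together only in part: r was 0.106 to 0.216 in wild type, 0.099 to 0.202 in knockout and 0.014 to 0.071 in AGP14, and -0.06 to 0.03 between genotypes, so numbers were not taken to pair arrays.

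With 1 array left out, members called ranged from 0 to 1 for knockout in 2i and with MEK inhibitor, AGP14 against wild type in serum and without LIF, LIF removal in wild type and knockout, MEK inhibitor against 2i in wild type and the genotype difference with MEK inhibitor; 0 to 2 for knockout without LIF; 1 to 2 for knockout in serum, AGP14 against knockout in 2i and without LIF, AGP14 against wild type in 2i, MEK inhibitor against serum in wild type, MEK inhibitor against 2i in knockout and the genotype difference from 2i to serum; 1 to 3 for knockout averaged and MEK inhibitor against serum in knockout; 2 to 3 for AGP14 against knockout in serum and serum against 2i in wild type and knockout; 3 to 4 for serum against 2i in AGP14; and 2 to 4 for EpiLC day 2.

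Other probe sets gave the opposite sign for some called differences. Cdx2 probe set 1422074_at gave -0.095 for knockout and for AGP14 against wild type in 2i, but it was at 0 to 0.19 on all 6 of those arrays and so gives no second reading. Elf5 probe set 1419555_at gave 0.735 for serum against 2i in AGP14. Plet1 probe set 1423934_at gave 0.02 for knockout in serum, 0.80 and 0.55 for AGP14 against knockout and wild type in 2i, 0.375 and 0.645 for serum against 2i in wild type and knockout, 0.12 for LIF removal in wild type, -0.39 and -0.48 for MEK inhibitor against serum, 0.165 for MEK inhibitor against 2i in knockout, 0.04 for EpiLC day 2, and 0.27 and -0.09 for the genotype differences. The cause was not tested. Dim signal limits Cdx2 and Elf5.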
